A study of Mus musculus with 15 samples.

Results

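The cytosolic ribosomal protein genes encode the proteins of the 60S and 40S subunits that translate messenger RNA outside the mitochondria. They were chosen by symbol: Rpl or Rps followed by a number and at most the letter a, x or y, together with Rplp0, Rplp1, Rplp2 and Rpsa. The rule matched 76 of the 23420 gene symbols in the files, and 75 of them held at least 1 count, among 17585 genes that did. Of the 75 genes, 45 belong to the 60S subunit and 30 to the 40S subunit. The remaining symbol, Rpl26, was listed with 0 counts in all 15 libraries, which allows a level of up to 0.0161 CPM (3 counts over all libraries, counting error only). In GENCODE 12.7% of its coding 50-base windows are found at no other gene; whether the annotation used for counting covers this gene is not known here, so the bound holds only for reads that could be counted under this symbol. CPM is a gene's count scaled to the same total of gene counts in every library.

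The RNA was polyA RNA from the left lobe of the liver, pulverized, of male mice of the inbred strain C57Bl/6J. Mice of the BD group ate a base diet with 4% fat, mice of the HFD group a diet with 31% fat, and mice of the MCD group a diet with 31% fat that was deficient in methionine, choline and folate. All 3 diets had 5 libraries, and every mouse had received only the vehicle, 5% Alkmauls El-620 in saline, 24 h earlier. Neither the mice's age nor their time on diet is given in the sources used here. No label ties a library to a separate animal, and the p-values therefore measure the spread between these libraries, which may be technical. Gene counts ran from 3704642 to 23131089 per library. All 9 hepatocyte markers found in the files had counts, with a summed level of 125555 to 164838 CPM.

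A ribosome holds most of its proteins in equal number, the acidic stalk proteins apart, and the genes are known for being expressed together at high levels in every cell type, the liver included. Their mRNAs begin with a run of pyrimidines, the terminal oligopyrimidine (TOP) motif, through which the kinase complex MTORC1 controls their translation. Ribosomal protein mRNAs have also been copied back into the genome many times as processed pseudogenes, which are intronless copies that are near-identical to the coding sequence. A read from such a stretch fits several places.

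Every 50-base window of each coding sequence was looked up in the GENCODE vM21 transcripts (GRCm38), on both strands and with exact matches. The length of 50 bases was a choice made here, since the read length is not given in the sources used here. The windows below show sequence found at a single gene beside sequence found at several loci, and are printed in lower case throughout, with their position in the coding sequence. The count of loci includes the gene's own.
Rpl4, positions 1 to 50, chr9:64173375-64178666 for the gene, 1 locus: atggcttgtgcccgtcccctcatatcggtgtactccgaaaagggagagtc
Rpl7, positions 71 to 120, chr1:16101295-16104662 for the gene, 1 locus: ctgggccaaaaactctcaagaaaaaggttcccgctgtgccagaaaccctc
Rpl7, positions 565 to 614, the same gene, 9 loci: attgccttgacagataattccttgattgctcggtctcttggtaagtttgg
Rplp1, positions 118 to 167, chr9:61913284-61914542 for the gene, 4 loci: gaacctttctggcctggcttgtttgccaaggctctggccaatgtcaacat

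Of the windows of the Rpl4 coding sequence 79.7% were found at that gene alone. In Rpl7 22.5% of them were, and in Rps29 none was. Over the 75 genes, 29 had no window of their own, 42 had under 10% and 3 had over 90%. The number of other loci that shared a window with a gene ran from 0 to 120, with a median of 10, and the 120 belonged to Rpl7a, 119 of them annotated as pseudogenes. Over whole transcripts, untranslated parts included, 40% of the ribosomal protein genes had under 50% of their windows to themselves, against 1.37% of the genes tested below.

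Levels were higher in genes with more sequence of their own. Alignments without a unique place entered no gene in the deposited files, where they numbered 1.15 to 2.80 for each gene count. The ratio was 1.88 ± 0.525 on BD, 1.89 ± 0.510 on HFD and 1.37 ± 0.183 on MCD (SD, n = 5 each). Its ranges overlapped, at 1.49 to 2.80, 1.15 to 2.53 and 1.19 to 1.66. The part of this difference in the diet comparisons was not tested, and a fit with the ratio as a covariate is among the alternatives below. Per kilobase of coding sequence, the 11 genes with over 50% of their windows to themselves had a median of 186 CPM, from 42.0 CPM in Rps21 to 352 CPM in Rpl4. The 22 genes with 10% to 50% had a median of 41.0 CPM per coding kilobase, and the 42 with under 10% a median of 2.16. Across the 75 genes, the log2 level per coding kilobase and the share of own windows had a Pearson correlation of 0.719 and a Spearman correlation of 0.762. These describe genes measured in the same libraries, and genes are not independent replicates. The highest level per coding kilobase, 467 CPM, was in Rpl41, whose coding sequence of 75 bases had no window of its own. Counts are per gene and may include untranslated parts, which the coding length leaves out. The level per coding kilobase can therefore be overstated in a gene with a coding sequence this short. The other 28 genes with no own window reached at most 35.6 CPM per coding kilobase.

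**Figure D1:**
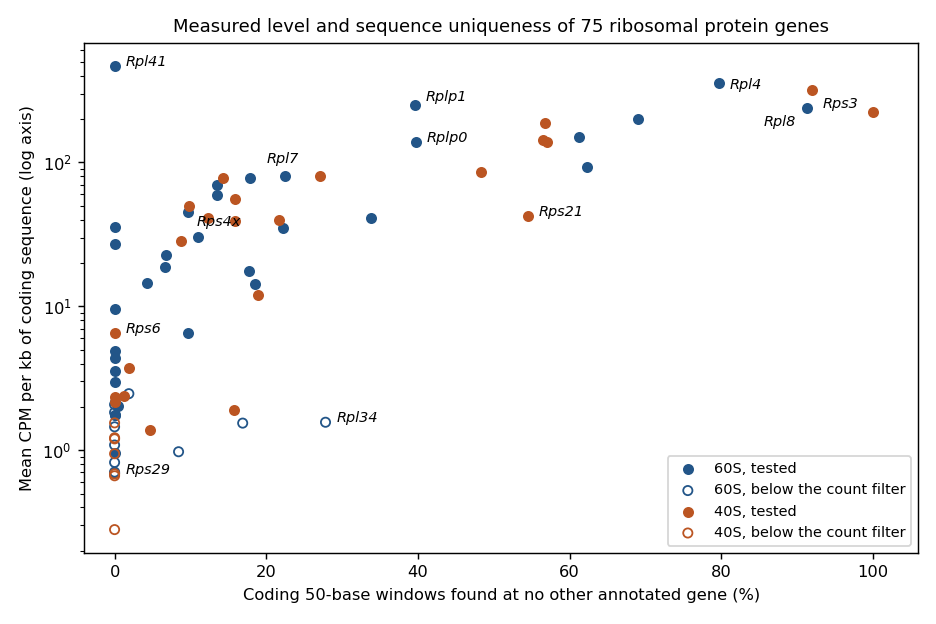
Mean CPM per kilobase of coding sequence (vertical, log axis) against the percent of coding 50-base windows found at no other annotated gene (horizontal), 1 point per gene, with open circles for genes below the count filter. Genes with mostly shared sequence lie at the lower left, Rpl4, Rps3 and Rpl8 at the upper right, and Rpl41 stands alone at the upper left.

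The counts were far from equal between the genes. The highest level per coding kilobase, that of Rpl41 with its very short coding sequence, was 1664 times the lowest. Rpl4, a large 60S protein, and Rps3, a 40S protein at the mRNA entry channel, together held 29.6% of the 424188 counts of the 75 genes, and the top 5 genes held 49.2%. Per coding kilobase, 12 genes were at 100 CPM or more and 9 were under 1 CPM. The part of shared sequence in these levels was not tested, and read placement and mRNA amount cannot be told apart in them.

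For 18 genes the counts were too few to test, among them Rpl19, Rpl21, Rpl24, Rpl27, Rpl30, Rpl34, Rps13, Rps16, Rps23, Rps27 and Rps29. They had 22 to 157 counts each over the 15 libraries, a mean of at most 0.878 CPM, and held 0.339% of the counts of the 75 genes. Of these 18, 14 had no coding window of their own. The zinc-binding 40S proteins Rps27 and Rps29 are examples: Rps29 had 23 counts in all and was at 0 in 3 libraries. In the shallowest library 3 counts are worth 0.810 CPM and in the deepest 0.130 CPM. None of the 18 was called in any comparison when the fit was run without the count filter. Just inside the filter, Rpl5 had 154 counts in all and a mean of 0.853 CPM, and Rps7 had the lowest mean of a tested gene, 0.810 CPM. The other 57 genes, 34 of the 60S and 23 of the 40S subunit, were tested.

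Summed over the 75 genes, the share of all gene counts overlapped between the 3 diets. In BD libraries it was 0.206%, 0.270%, 0.272%, 0.235% and 0.202%, in HFD libraries 0.252%, 0.223%, 0.208%, 0.213% and 0.225%, and in MCD libraries 0.214%, 0.216%, 0.242%, 0.221% and 0.239%. The means were 0.237% ± 0.0334 (SD, n = 5) on BD, 0.224% ± 0.0173 on HFD and 0.226% ± 0.0133 on MCD, and the ranges overlapped. BD libraries held both the lowest and the highest share, 1.35 times apart. The 40S counts stood to the 60S counts at 0.610 ± 0.0487 on BD, 0.610 ± 0.0253 on HFD and 0.655 ± 0.0590 on MCD (SD, n = 5 each), with overlapping ranges of 0.563 to 0.679, 0.580 to 0.642 and 0.571 to 0.716. In bulk tissue, fewer cells of a type and less RNA per cell cannot be told apart, and this holds for all values given here.

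**Figure D2:**
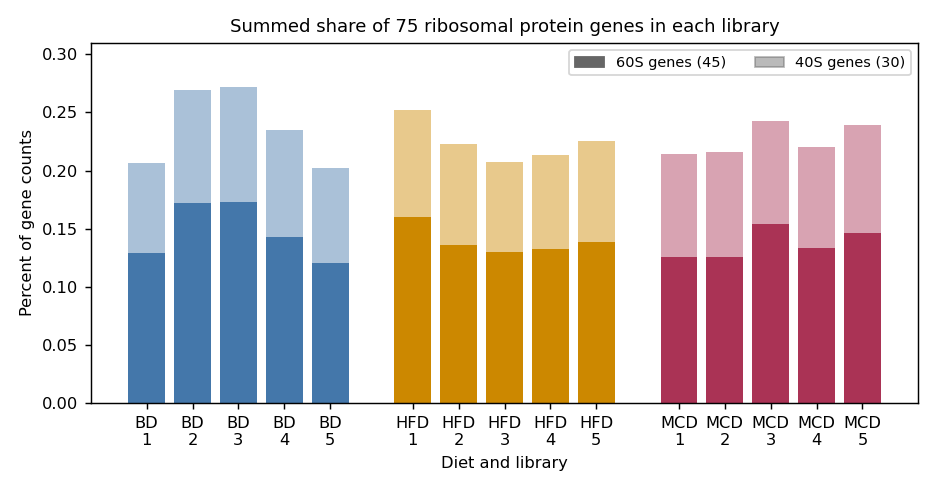
Percent of all gene counts (vertical) held by the 45 genes of the 60S subunit (full colour) and the 30 of the 40S subunit (pale) in each of the 15 libraries (horizontal, grouped by diet). The bars run from 0.202% to 0.272%, and both of these are BD libraries.

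Diet differences of single genes were tested with edgeR's quasi-likelihood F test on the counts of 12193 genes, in 1 fit of the 15 libraries. A gene was called at a Benjamini-Hochberg adjusted p under 0.05 over all of them. Fold changes are log2 values scaled with TMM factors, which set libraries against each other on most genes. Ratios of the CPM values carry no such factor and can therefore differ from the fold changes. Between MCD and BD, the log2 fold change of Rpl7 was -0.41 with TMM factors and -0.27 with library totals in their place. The comparisons with BD share the BD libraries.

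The first comparison set the diet with more fat against the base diet. No ribosomal protein gene was called between HFD and BD, 0 of 57 in either direction, against 6.92% of all genes tested (3.65% higher and 3.27% lower). DESeq2 and limma-voom also called 0. At an unadjusted p under 0.05 there was 1, Rpl37a, a 60S zinc-binding protein, against 20.2% of all genes. The median log2 fold change of the 57 genes was -0.16, with 49 of them below 0, while that of all genes was -0.01; with library totals in place of TMM factors these were -0.10, 44 and 0.06. For 46 of the 57 (80.7%) the 95% interval lay within a 2-fold change either way, against 85.3% of all genes, and no gene had groups that did not overlap, against 7.58%. Within a 1.5-fold change it lay for 42.1% of the 57 against 58.5% of all genes. These shares were 43.9% against 53.5% between MCD and BD, and 40.4% against 61.1% between MCD and HFD. The median SE of the 57 was 0.22, 0.21 and 0.22 in the 3 comparisons, against 0.15 for all genes in each. The shares of calls thus stand beside a background that was measured more precisely.

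The lowest fold changes between HFD and BD were in genes with few counts or a wide spread. Rpl17 was at -0.60 ± 0.29 (SE), Rpl9 at -0.58 ± 0.40, Rplp2 at -0.56 ± 0.53 and Rps10 at -0.55 ± 0.40, with adjusted p of 0.247 to 0.630. The highest were Rpl11 at 0.33 ± 0.39, Rps12 at 0.33 ± 0.39, Rpl23a at 0.24 ± 0.27 and Rpl31 at 0.23 ± 0.33. Genes with many counts had narrow intervals. Rpl4 had a log2 fold change of -0.06 with a 95% interval from -0.23 to 0.11, and Rps3 of -0.05 with an interval from -0.24 to 0.14.

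The second comparison set the diet deficient in methionine, choline and folate against the base diet. Here 1 gene of 57 fell, Rpl7, and none rose, against 21.4% of all genes called (12.8% upward and 8.64% downward). There were 8 genes at an unadjusted p under 0.05, against 33.3% of all genes: 7 on the lower side, among them Rpl7, Rpl8, Rpl4, Rpsa and Rpl6, and Rpl31 on the higher side. DESeq2 and limma-voom also called Rpl7 alone. The median log2 fold change of the 57 genes was -0.13, with 39 below 0, and that of all genes was -0.03. With library totals in place of TMM factors, the median of the 57 was 0.00, with 28 below 0, and that of all genes was 0.12.

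Rpl7, a 60S protein, was measured at 75.3, 73.0, 70.9, 72.4 and 58.5 CPM on BD. On HFD it was at 69.3, 55.9, 72.6, 70.3 and 68.0 CPM, and on MCD at 51.7, 59.9, 66.0, 56.4 and 55.3 CPM. Most MCD libraries lay below the BD libraries, but the lowest BD library, 58.5 CPM, lay within the MCD range, so the groups overlapped. The means were 70.0 ± 6.63 CPM on BD and 57.9 ± 5.44 CPM on MCD (SD, n = 5 each). The log2 fold change was -0.41 ± 0.10 (SE), with a 95% interval from -0.63 to -0.19 and an adjusted p of 0.00900. Over 28 alternatives the adjusted p ran from 0.00257 to 0.0653, and the call was lost in 1, when counts were thinned to the shallowest library. Rpl8, another 60S protein, was nearest to it, at 169, 237, 233, 195 and 163 CPM on BD and 176, 155, 182, 167 and 200.4 CPM on MCD, with a log2 fold change of -0.32 ± 0.12 and an adjusted p of 0.0589.

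Markers of other cells moved with this comparison, in which 12.8% of all genes tested were called higher and 8.64% lower. All 14 macrophage markers tested rose, and their summed level was 342 to 554 CPM on BD and 780.0 to 1038 CPM on MCD. Of 11 stellate cell and matrix markers 10 rose, from a sum of 309 to 402 CPM to one of 597 to 1054 CPM. Of 11 proliferation markers 9 rose and 1 fell. Of 7 endothelial markers 3 rose, and of 5 cholangiocyte markers 1 rose and 1 fell. Of 3 T and B lymphocyte markers 1 fell, as did the 1 exocrine pancreas marker tested. Of 9 hepatocyte markers 4 fell, although their sum overlapped, at 136225 to 152827 CPM on BD and 135822 to 164838 CPM on MCD. The part of these cells in the Rpl7 value was not tested. None of the 57 genes rose beside them. The other comparisons had marker calls too, beside 3.65% of all genes called higher between HFD and BD and 2.22% between MCD and HFD. Of macrophage markers 6 and 3 of 14 were called higher in these, and of stellate cell and matrix markers 0 and 6 of 11. Of proliferation markers 1 and 7 of 11 were called higher. Between HFD and BD 1 was called lower, and no other marker of these lists was.

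Rpsa, the 40S protein also known as the laminin receptor, had the next to lowest value between MCD and BD, with 2.16, 3.60, 3.17, 2.18 and 1.25 CPM on BD and 1.38, 1.53, 2.16, 2.06 and 1.75 CPM on MCD. The groups overlapped, with the lowest value of both in a BD library. Its log2 fold change was -0.60 ± 0.28 (SE) with an adjusted p of 0.145, but without BD replicate 5 it was -0.83 with an adjusted p of 0.0241. Rpl35a, a 60S protein, was the lowest at -0.61 ± 0.30 and an adjusted p of 0.178. It had 23.8, 34.7, 42.8, 29.1 and 15.8 CPM on BD and 14.1, 10.9, 37.4, 19.3 and 24.3 CPM on MCD. Here a single MCD library, replicate 3, lay high, and without it the value was -0.91 with an adjusted p of 0.0237. Over their alternatives, Rpsa was called in 1 of 26 and Rpl35a in 2 of 28. Rplp1, at -0.57 ± 0.60, and Rplp2, at -0.56 ± 0.52, came next and were not called.

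Rpl31, a 60S protein at the rim of the exit tunnel, had the highest value between MCD and BD. It was at 0.540, 1.1, 0.731, 1.5 and 1.03 CPM on BD and at 1.95, 2.95, 1.17, 1.45 and 1.53 CPM on MCD, with a log2 fold change of 0.68 ± 0.30 and an adjusted p of 0.123. The groups overlapped, and the gene had no coding window of its own and shared windows with 25 other loci. Rpl11 was at 0.49 ± 0.36 and Rps19, a 40S protein mutated in Diamond-Blackfan anaemia, at 0.33 ± 0.25, neither of them called. Rpl13 was at 0.35 ± 0.28; its highest MCD library was replicate 2 with 14.4 CPM, and without that library the value was -0.01.

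The third comparison held dietary fat equal at 31% and set the missing nutrients apart from it. No ribosomal protein gene was called between MCD and HFD, 0 of 57, against 3.15% of all genes (2.22% higher and 0.927% lower). DESeq2 and limma-voom also called 0. At an unadjusted p under 0.05 there were 6, among them Rpl7, Rps19, Rpl13, Rps24 and Rpl37, against 19.9% of all genes. The median log2 fold change was -0.00 for the 57 genes and -0.00 for all genes, with 29 of the 57 below 0, and 0.07 for both with library totals in place of TMM factors. Rpl7 was at -0.29 ± 0.10 with an adjusted p of 0.131, and without HFD replicate 2, its lowest HFD library at 55.9 CPM, at -0.34 with an adjusted p of 0.0397. Over all its alternatives it was between -0.41 and -0.21.

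The other extremes of that comparison were not called. Among the lowest, Rps12 was at -0.40 ± 0.37 (SE), Rpl35a at -0.38 ± 0.30 and Rpsa at -0.30 ± 0.28. On the other side, Rpl9 was at 0.64 ± 0.39, Rpl13 at 0.64 ± 0.28, Rps19 at 0.63 ± 0.25 and Rps10 at 0.59 ± 0.38. Rps19 was measured at 2.40, 3.39, 5.04, 5.55 and 4.24 CPM on HFD and at 7.95, 5.09, 6.60, 6.24 and 7.76 CPM on MCD, so that the groups overlapped only between 5.09 and 5.55 CPM. Its adjusted p was 0.162. No gene of the 57 had groups that did not overlap in any of the 3 comparisons, against 7.58%, 16.3% and 4.54% of all genes.

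**Figure D3:**
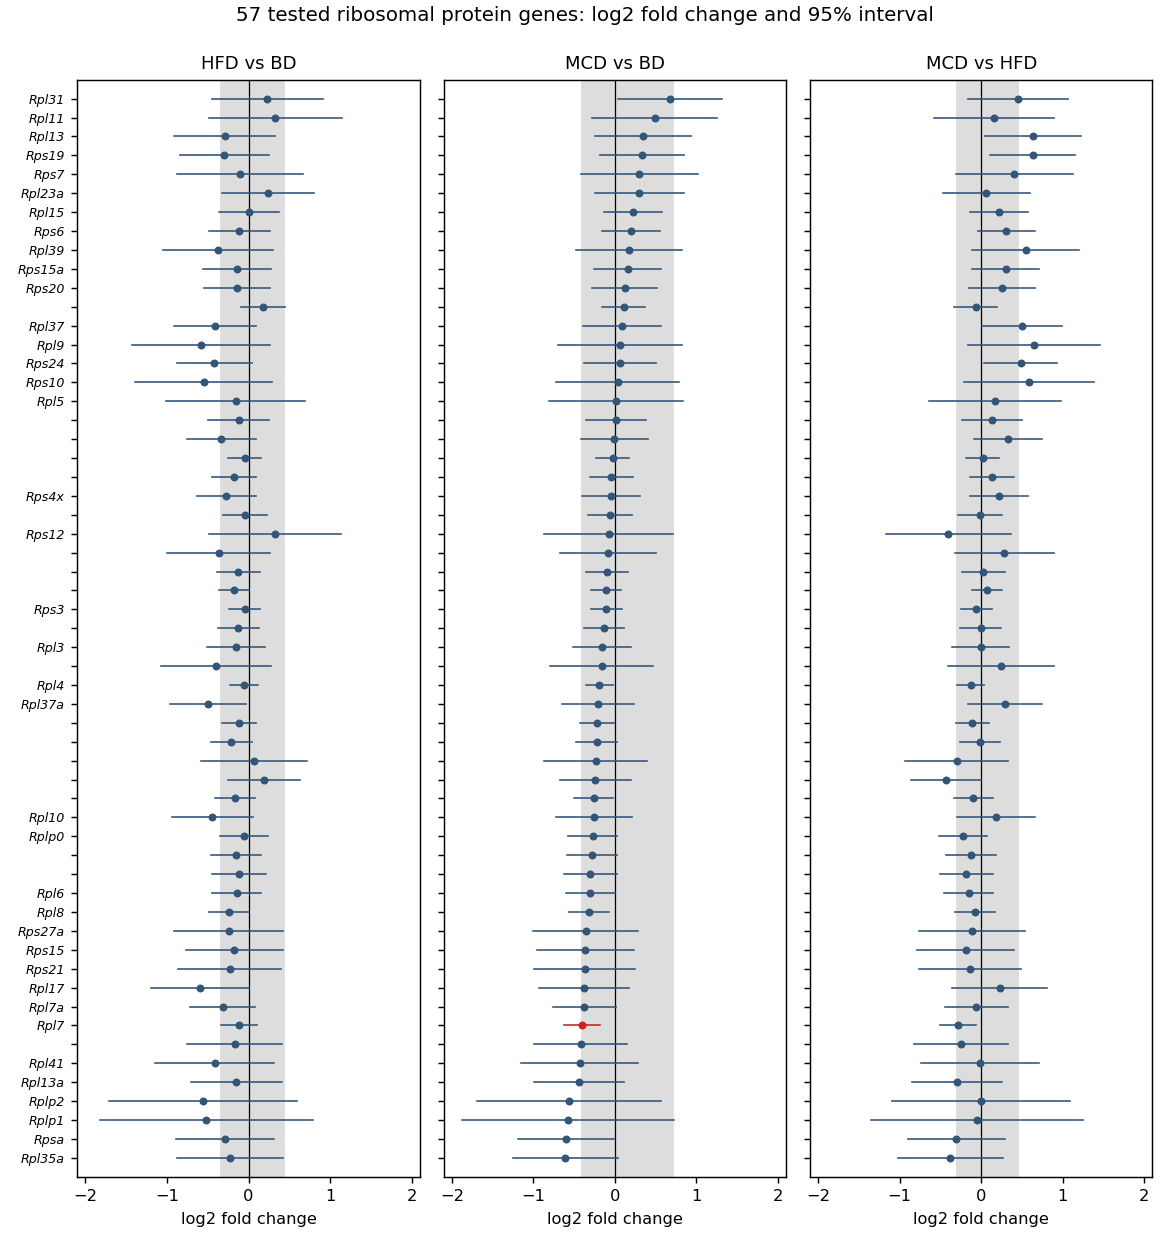
log2 fold change (point) and 95% interval (line) of the 57 tested genes in the 3 comparisons, ordered by MCD against BD, with a grey band from the 10th to the 90th percentile of all genes tested and red for a gene called at an adjusted p under 0.05; genes named in the text are labelled. Rpl7 between MCD and BD is the only red point, and the widest intervals belong to Rplp1 and Rplp2.

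Rpl3, Rpl10 and Rpl4 were not called in any comparison. Rpl3, which lies at the peptidyl transferase centre, was at 18.2 ± 4.21 CPM on BD, 16.9 ± 2.23 on HFD and 17.7 ± 3.11 on MCD (SD, n = 5 each), with log2 fold changes of -0.15, -0.16 and -0.01. Rpl10, which joins the 60S subunit late, was at 3.04 ± 1.19, 2.47 ± 0.558 and 2.94 ± 0.342 CPM. Rpl4 had 435, 479.5, 456, 459.8 and 410.1 CPM on BD, 435, 428, 447, 477 and 459 CPM on HFD, and 398, 427, 453, 452 and 429 CPM on MCD. These ranges overlapped, and its highest library was 1.20 times its lowest.

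Rps6, the 40S protein that S6 kinase phosphorylates downstream of MTORC1, was at 4.86, 4.50, 3.58, 5.03 and 4.52 CPM on BD and at 4.11, 4.07, 5.72, 4.59 and 3.31 CPM on HFD. On MCD it was at 5.19, 6.71, 5.08, 6.12 and 5.03 CPM, where all but 1 HFD library, at 5.72 CPM, lay lower. Its log2 fold change between MCD and HFD was 0.31 ± 0.17 (SE) with an adjusted p of 0.314. Rpl5 and Rpl11, which with 5S ribosomal RNA bind the p53 regulator Mdm2, were near the limit of detection. Rpl5 ran from 0.272 to 1.83 CPM and Rpl11 from 0 to 1.83 CPM over the 15 libraries, neither with a coding window of its own. Rpl13a, a 60S protein that can also silence translation, was at 98.3 ± 36.8 CPM on BD, 92.9 ± 26.9 on HFD and 80.2 ± 22.1 on MCD.

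Rps27a, a fusion of ubiquitin and a 40S protein, was at 1.08 ± 0.478, 0.969 ± 0.276 and 0.978 ± 0.196 CPM on the 3 diets, and was called in none of the comparisons. Some ribosomal proteins have symbols that the rule did not match. Rps3a1, a 40S protein, ran from 13 to 38.4 CPM, and Gnb2l1, the 40S scaffold also called Rack1, from 208 to 291 CPM, with no call between diets. Fau, a fusion of a ubiquitin-like protein and a 40S protein, was at -0.96 ± 0.38 between HFD and BD with an adjusted p of 0.157, at 0.291 to 2.19 CPM. Of the 4 paralogs tested (Rpl7l1, Rpl22l1, Rpl36al and Rps27l), Rpl7l1 fell between MCD and BD, by 0.39 on the log2 scale (SE 0.10, adjusted p 0.00703). It was at 49.1, 64.3, 53.1, 60.6 and 59.8 CPM on BD and at 50.4, 50.6, 47.6, 45.9 and 47.1 CPM on MCD, with overlapping groups, and lost its call with library totals in place of TMM factors and when non-unique alignments entered the fit as a term (-0.25 under both).

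Rplp1 and Rplp2 varied most between libraries of the same diet. Rplp0, Rplp1 and Rplp2 form the lateral stalk of the 60S subunit, where acidic P1 and P2 proteins recruit elongation factors. Rplp1 was at 38.6, 165, 205, 75.9 and 33.9 CPM on BD, at 147, 77.4, 56.8, 47.0 and 53.8 CPM on HFD, and at 39.2, 23.4, 156, 66.4 and 103 CPM on MCD. Each diet thus had libraries near 50 CPM or below and at least 1 near 150 CPM, and the highest library was 8.76 times the lowest. Rplp2 followed, with 6.48, 25, 34.8, 13.3 and 6.00 CPM on BD, 23.6, 11, 6.41, 6.37 and 14.3 CPM on HFD, and 7.87, 8.95, 17.9, 9.15 and 22.4 CPM on MCD. Rplp0, the stalk's base, varied less, from 86.7 to 168 CPM.

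**Figure D4:**
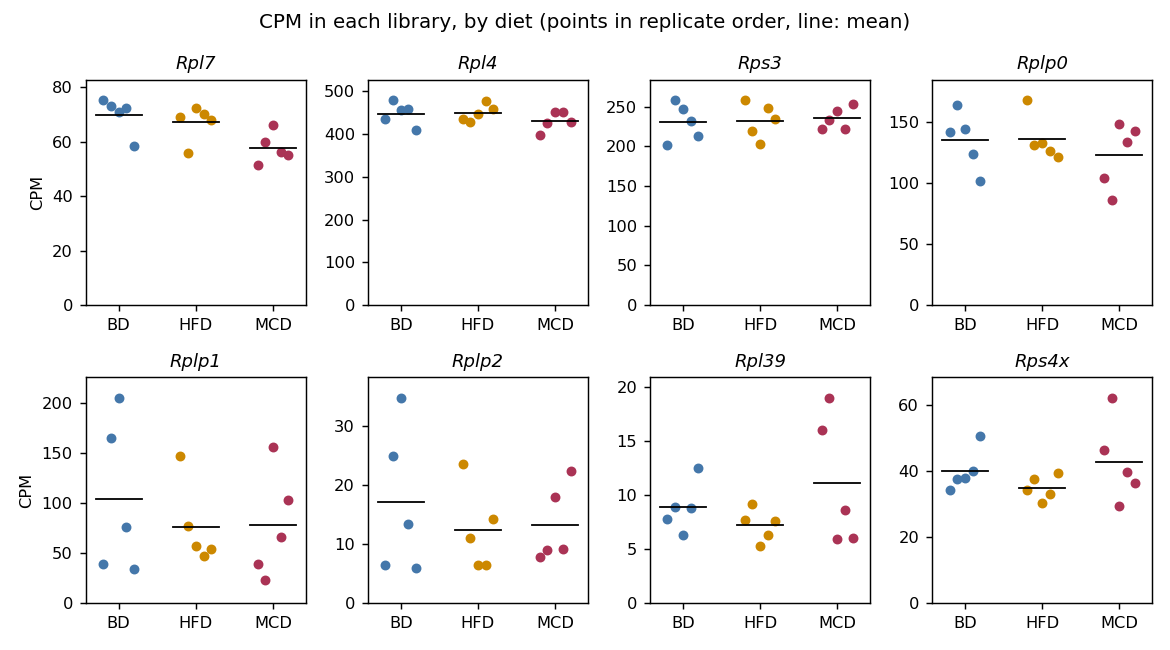
CPM (vertical, from 0) in each library by diet (horizontal) for 8 genes, with a point per library in replicate order and a line at the diet's mean. Rpl7 is lowest on MCD, Rpl4 and Rps3 are steady, and Rplp1 and Rplp2 spread within each diet over more than their means differ.

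Their within-diet SD was large among genes of 10 CPM or more, a comparison not matched for level. On the log2 scale it was 0.98 for Rplp1 and 0.87 for Rplp2, and among 7580 other genes of 10 CPM or more only 22 (0.290%) exceeded Rplp1. At the other end, the SD of Rpl4 was 0.09, and 97.0% of the other genes exceeded it. Over the 35 ribosomal protein genes of 10 CPM or more, the median within-diet SD was 0.27, against 0.19 for the other genes. Of the 35 genes 4 were above 0.5 (Rplp1, Rplp2, Rpl41 and Rpl35a), as were 2.70% of the other genes. With that spread the design gave little precision for these genes: the 95% interval of Rplp1 between MCD and BD ran from -1.87 to 0.73.

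A first axis through the within-diet deviations of the 35 genes held 70.7% of their variance. With Rplp1 on the positive side came Rplp2, Rpl41 (a 60S protein of very few residues), Rps21, Rpl35a, Rps15 and Rpl13a, and on the opposite side Rps24, Rpl15, Rps15a, Rps20 and Rps4x. In all, 23 genes lay on the positive side and 12 on the other. Rps4x, the X-linked 40S protein, was lowest on MCD at 29.5 CPM in replicate 3 and highest at 62.2 CPM in replicate 2, the reverse of Rplp1 at 156 and 23.4 CPM. Rpl39, a 60S protein of the exit tunnel, was at 5.96 and 19.0 CPM in the same libraries. The ratio of Rplp1 to Rpl39 CPM ran from 1.23 in MCD replicate 2 to 32.8 in BD replicate 3. Over the 595 pairs of the 35 genes, the median correlation of their within-diet deviations was 0.178, and 39.5% of the pairs were negative, so that some of these genes were high in libraries in which others were low.

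Base composition of the library moved with this axis. For each library, the slope of the within-diet deviation on GC content was fitted over 9670 other genes. The slope was lowest in BD replicate 5, at -0.318 log2 units per 10 percentage points of GC, and was -0.186 in MCD replicate 2, the libraries in which Rplp1 was lowest in its diet; in HFD replicate 4, its lowest on HFD, the slope was -0.160. It was highest in BD replicate 2 at 0.200, and was 0.124 in BD replicate 3, 0.152 in HFD replicate 1 and 0.103 in MCD replicate 3, libraries in which Rplp1 was high. The match was not strict: the slope was 0.174 in MCD replicate 5, where Rplp1 was lower than in MCD replicate 3, and 0.111 in HFD replicate 2. Over the 15 libraries, the slope and the library's score on the axis had a Pearson correlation of 0.901 and a Spearman correlation of 0.896, a description only. Among the 35 genes, the loading on the axis and the GC content of the coding sequence had a Pearson correlation of 0.479 and a Spearman correlation of 0.502, a description over genes of the same libraries. Rplp1 has 58.2% GC and Rps24 46.1%, but Rpl35a, on the positive side, has 48.8%. The part of base composition in the spread was not tested. As a check on the diet comparison, an offset for GC content, added after the data were seen, left 0 genes called in HFD against BD and in MCD against HFD, and called Rpl7 and Rpl8 lower in MCD against BD.

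**Figure D5:**
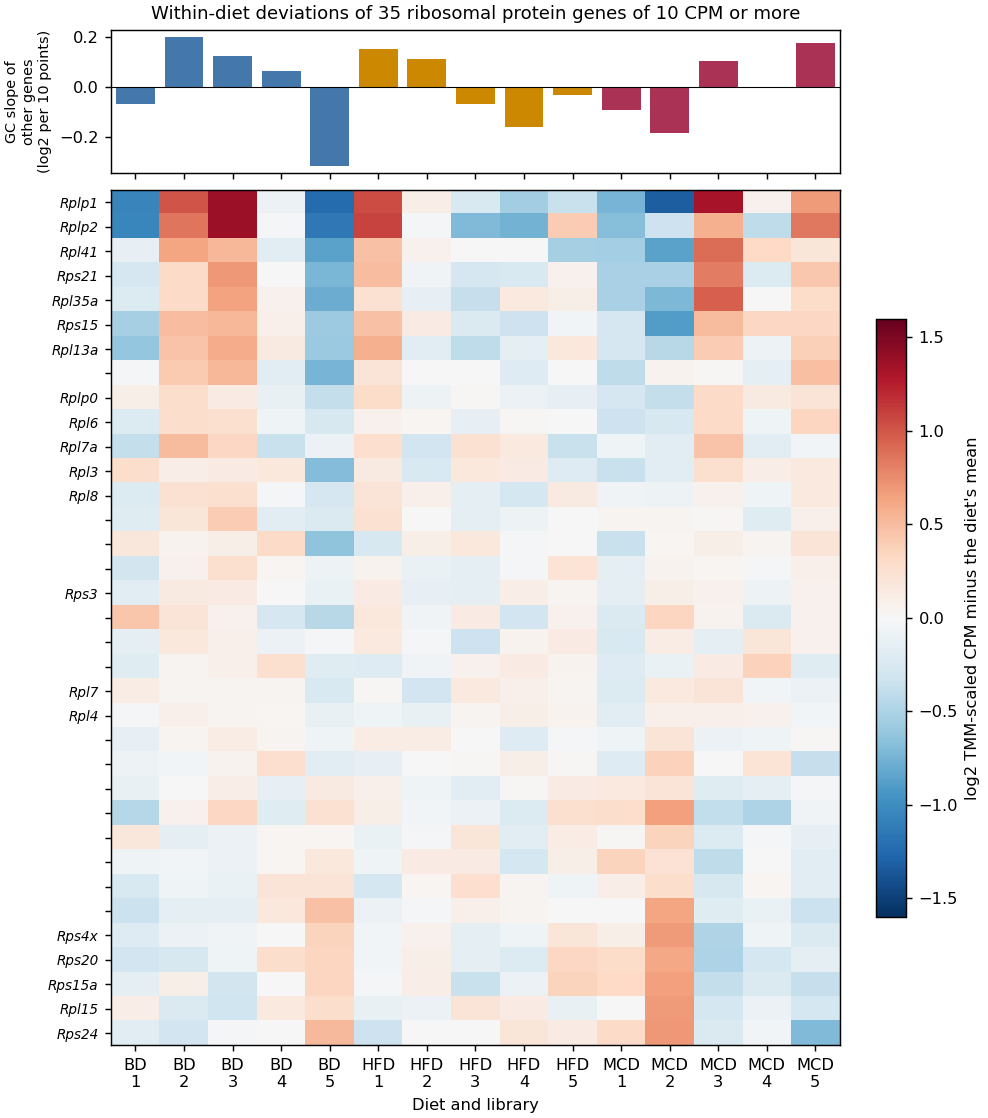
Lower panel: log2 TMM-scaled CPM of 35 genes (rows, ordered by their loading, with labels for those named in the text) minus the diet's mean, in the 15 libraries (columns). Upper panel: slope of the same deviation on GC content over 9670 other genes, in log2 units per 10 percentage points; the libraries with red upper rows mostly have positive slopes, and BD replicate 5 and MCD replicate 2, blue in the Rplp1 row, have negative ones.

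The start sites of genes from both ends of that axis were compared, since a TOP motif is the feature these mRNAs are known to share. RefSeq promoters (GRCm38.p6) were at hand for 55 of the 75 genes. A run was counted where a C within 5 bases of the listed start opened at least 5 pyrimidines (C or T) on the sense strand, and a gene counted if any of its listed starts had one. In the windows below, from 15 bases before the start to the 15th base of the transcript, capitals mark that run. For Rps21, Rpl35a and Rps24, which have further listed starts without a run, the start with the run is printed. The first 3 genes lie on the positive side of the axis and the next 3 on the opposite side, and Rplp0 and Rpl4 are shown as genes without a run at the listed start. Not every gene named at the ends of the axis had a run: Rpl41 and Rps15 on the positive side and Rps4x on the opposite side had none.
Rplp2, chr7:141447636-141447665, + strand: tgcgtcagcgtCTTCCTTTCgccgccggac
Rps21, chr2:180257364-180257393, + strand: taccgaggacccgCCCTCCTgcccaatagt
Rpl35a, chr16:33056467-33056496, + strand: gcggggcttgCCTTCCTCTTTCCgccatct
Rps24, chr14:24490663-24490692, + strand: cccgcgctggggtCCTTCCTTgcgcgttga
Rpl15, chr14:18270972-18271001, - strand: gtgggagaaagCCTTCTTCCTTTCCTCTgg
Rps15a, chr7:118116133-118116162, - strand: ctctctttctgccatCTTCCCTCgccggtg
Rplp0, chr5:115559452-115559481, + strand: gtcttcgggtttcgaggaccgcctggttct
Rpl4, chr9:64173372-64173401, + strand: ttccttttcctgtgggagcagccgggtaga

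A run stood at a listed start of 27 of the 55 genes (49.1%), against 21.1% of 26970 other genes in the table. Genes that moved oppositely within a diet, such as Rplp2 and Rps24, both had one. In Rpl4 a pyrimidine stretch lies at the left end of the window, outside the 5 bases searched, so the count depends on which start is listed. A match is a description of the letters only.

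The rest of the translation machinery was described by gene lists, whose counts stand beside the 6.92%, 21.4% and 3.15% of all genes called in the 3 comparisons. Of all genes, 3.27%, 8.64% and 0.927% were called lower. Of 74 mitochondrial ribosomal protein genes tested, 1 fell between HFD and BD (Mrps35) and 4 between MCD and BD (Mrpl15, Mrpl18, Mrps16 and Mrps31), and none between MCD and HFD, or 1.35%, 5.41% and 0% of the list; their median log2 fold changes were -0.12, -0.09 and -0.01. The 4 calls were between -0.36 and -0.28 on the log2 scale, and their number ran from 0 to 9 over the alternatives, with 0 under library totals in place of TMM factors. None of 18 other genes known for TOP mRNAs was called in any comparison. The 63 ribosome assembly and rRNA processing genes gave 0 calls between HFD and BD, 2 lower between MCD and BD (3.17%), and 0 between MCD and HFD. Of these 2, Emg1, an rRNA methyltransferase of the small subunit, fell by 0.52 on the log2 scale (SE 0.12, adjusted p 0.00360), from 37.6 ± 4.68 to 28.8 ± 3.44 CPM (SD, n = 5 each), and was called in all 28 alternatives. Nop16 fell by 0.35 (adjusted p 0.0327).

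Among 35 initiation factor genes 2 fell between MCD and BD, Eif3g by 0.35 (adjusted p 0.0170) and Eif3d by 0.29 (adjusted p 0.0203), both subunits of the factor that holds the 40S subunit; the 5.71% called compares with 8.64% of all genes called lower. Among 13 elongation and release factor genes 1 fell (7.69%), the ribosome rescue factor Hbs1l, by 0.31 (adjusted p 0.0215), while Abce1, which splits ribosomes for recycling, was at -0.28 and was not called (adjusted p 0.0933). None of Nop16, Eif3g, Eif3d and Hbs1l was called with library totals in place of TMM factors, at -0.21, -0.21, -0.15 and -0.18. Between HFD and BD and between MCD and HFD no initiation, elongation or release factor was called.

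Of 24 genes of MTORC1 and translational control, 3 were called higher and 2 lower between MCD and BD, 20.8% against 21.4% of all genes, so the list's share was near that of all genes. Larp1, which binds the cap and the TOP motif of ribosomal protein mRNAs, was at 259, 228, 224, 233 and 198 CPM on BD, at 187, 156, 226, 199 and 192 CPM on HFD, and at 142, 116, 176, 149.9 and 182 CPM on MCD. The BD and MCD libraries did not overlap. It fell by 0.72 between MCD and BD (SE 0.12, adjusted p 0.000375) and was called in all 28 alternatives, between -0.77 and -0.58. Rragd, a Rag GTPase that brings MTORC1 to the lysosome, rose from 1.82 ± 0.460 CPM on BD to 6.73 ± 2.41 on MCD (SD, n = 5 each), by 1.66 ± 0.27 (SE, adjusted p 0.000305), with no overlap, and was called in all 27 alternatives that gave it a value. It was also higher on HFD than on BD, at 1.06 ± 0.29 (adjusted p 0.0295), a call lost in 8 of 27 alternatives. Mtor and Rragc were the other genes called higher, and lost the call in 13 and 3 of 28 alternatives. Between HFD and BD, 2 of the 24 genes were called higher and 0 lower, 8.33% against 3.65% of all genes called higher. These were Rragd and Mtor, with Mtor at 0.49 and its call lost in 5 of 28 alternatives. Rps6kb1, the S6 kinase, was the other called lower, and lost the call in 3 of 28, among them library totals in place of TMM factors (-0.22, adjusted p 0.129).

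In the integrated stress response, Atf3 and Trib3 rose between MCD and BD, 2 of 13 genes or 15.4% against 12.8% of all genes called higher, by 2.71 ± 0.42 and 1.21 ± 0.23 (SE), with adjusted p of 0.000291 and 0.00112. Atf4, a central transcription factor of this response, was not called between MCD and BD (-0.24, adjusted p 0.205) and fell by 0.54 between HFD and BD (adjusted p 0.0153), a call lost without BD replicate 4. Among RNA polymerase I genes, Cd3eap rose and Polr1b fell between MCD and BD, 2 of 14 (14.3%), and neither call held in all alternatives. Cd3eap was also called higher between HFD and BD, at 0.55, and lost the call in 10 of 28 alternatives. Polr1b was also called lower between MCD and HFD, at -0.41, and lost the call in 18 of 28. Among 14 p53 targets 3 rose and 0 fell between MCD and BD, 21.4% of the list against 12.8% of all genes called higher. They were Ccng1 by 0.47, Phlda3 by 1.85 and Eda2r by 2.92, while Rpl5 and Rpl11 were not called.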

How the data were processed

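The authors deposited whole-number read counts per gene symbol, 1 file per library; the tools named in the submitters' processing notes are HTSeq, TopHat2 (2.0.13), Trimmomatic and DESeq2, and the build is GRCm38/mm10. The sources used here give no annotation, counting mode or strand setting, and overlapping and antisense genes are uncertain. Library sizes leave out the 5 summary rows; reads outside genes were 12.7% to 17.0% of uniquely placed reads. Counts were tested with edgeR 4.0.16 (R 4.3.3): TMM, filterByExpr (minimum count 10, total 15), 1 robust quasi-likelihood fit over the 15 libraries, adjusted over 12193 genes. DESeq2 1.42.0, limma-voom 3.58.1, other scalings, filters, thinning and left-out libraries were alternatives. The test was tried on simulated data. The members and lists were chosen with earlier results of these data known. Named genes were the 4 highest and lowest per comparison, fixed roles, untested members, related genes, and the 2 smallest p of the assembly, initiation, elongation and MTORC1 lists in MCD against BD; other named genes (such as Rpl8 and Rpl4) were chosen after their values were seen. Some items that this rule names are not reported here.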

Additional observations from a re-analysis of the deposited data

Results flagged for a closer look

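In 90 groups of 5 libraries (26 genes and 4 summed measures on 3 diets), the gap of an extreme library to the nearest other was divided by the group's range. In 7 groups this ratio exceeded Dixon's 95% critical value of 0.71. Chance flags about 1 in 20 groups. On BD, replicate 5 was lowest for Rpl3, at 10.9 CPM against 19.2 to 21.6 CPM in the others, and for Rpl7, at 58.5 CPM against 70.9 to 75.3 CPM. Replicate 4 was lowest for Rps12, at 0.272 CPM against 0.810 to 0.985 CPM. On HFD, replicate 2 was lowest for Rpl7, at 55.9 CPM against 68.0 to 72.6 CPM. Replicate 1 was highest for Rplp0, at 168 CPM against 121 to 133 CPM, and for the summed share of the 60S genes, at 0.160% against 0.130% to 0.138%. On MCD, replicate 2 was highest for Rps27a, at 1.32 CPM against 0.848 to 0.934 CPM.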

How the results depend on the processing

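The counts of 0 between HFD and BD held under all 30 alternatives, and those of 0 higher genes in the other comparisons did too. The count of 1 lower gene between MCD and BD was 2 with a covariate for non-unique alignments, 2 with the GC offset and 2 at an adjusted p under 0.1 (Rpl7 and Rpl8 each time), 3 without HFD replicate 2 and MCD replicate 3 (Rpl35a, Rpl7 and Rpl7a), and 0 with thinned counts, where 43 genes were tested. Leaving out 1 library at a time gave 1 to 4, the 4 (Rpl7, Rpl8, Rps2 and Rpsa) without BD replicate 5. Between MCD and HFD, leaving out 1 library gave 0 to 1 lower gene, and without HFD replicate 2 and MCD replicate 3 there was 1 (Rpl7, -0.41, adjusted p 0.0172). The median between MCD and HFD ran from -0.0060 to 0.0836 with 1 library left out, the highest without MCD replicate 1, and was -0.0106 without HFD replicate 2 and MCD replicate 3. Rpl13 between MCD and BD ran from -0.0120 to 0.493 with 1 library left out, below 0 in these without MCD replicate 2 alone; the cause of these shifts was not tested. No paired analysis was possible because the replicate numbers follow the order of accession and the labels give no pairs. Of the 75 genes, 18 were not tested, and 15 of the tested genes had no coding window of their own.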
